A study of Mus musculus with 4 samples.

Results

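Plasma cells with an intermediate level of the Blimp1 reporter (Blimp1-int) were set against naive follicular B cells. Members were taken by their titles and sort descriptions and fill 3 of the 4 arrays of the series: 2 of Blimp1-int plasma cells and 1 of naive B cells. The remaining array holds plasma cells with a high reporter level (Blimp1-hi) and is used below only to show where Blimp1-int differed from it. All mice were C57BL/6 with the genotype prmd1-gfp, a green fluorescent protein reporter of Blimp1, so naive and plasma cells alike carry it. Blimp1-int cells were sorted as CD138+ Blimp1 intermediate and naive cells as B220+ IgD+, and cells were taken directly from mice with no treatment. For sorting plasma cells 5 to 10 animals were pooled. The ages of the mice were not given. The cell type and source fields of the plasma cell arrays name follicular B cells, in conflict with their titles and sort gates, which were followed here.

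A naive follicular B cell carries its antibody as a membrane receptor, presents antigen to T cells on MHC class II and circulates between lymphoid organs. When it becomes a plasma cell, Blimp1, Irf4 and Xbp1 replace the B cell transcription factors, and the cell turns to making and exporting antibody. Each secreted antibody chain passes through the endoplasmic reticulum (ER), where chaperones fold it, the unfolded protein response adjusts folding capacity, and ER-associated degradation removes chains that fail to fold.

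RNA was measured on single-colour Illumina arrays with 46120 probes, and levels are given on the log2 scale on which they were deposited, where a difference of 1 is 2-fold if the scale is a plain log2. Between 6373 and 7301 probes exceeded background on each of these 3 arrays, background being the mean plus 3 standard deviations of 43 probes whose targets (bacterial, plant, spike-in or vector) no mouse cell makes (8.63 to 8.69). Of the probes 9850 could be given a gene, and the 2702 genes seen above background on 1 or more of the 4 arrays were tested. A gene was called higher or lower in Blimp1-int where limma's adjusted p (Benjamini-Hochberg, two-sided) was under 0.05 and the difference was at least 1. SE is the standard error from limma. The naive group has no replicate, and its spread is taken to equal that of the Blimp1-int pair. Whether this pair came from different animals is not stated, so the p-values reflect the spread of these 2 samples alone and that spread may be technical.

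The sort was checked on its markers first. The probe for eGFP lay at 10.55 and 10.82 in the Blimp1-int arrays, against 8.29 in naive cells, below background there, a rise of at least 4.16-fold in Blimp1-int. Sdc1, the gene of CD138, lay at 9.21 and 9.36 in Blimp1-int and at 8.24, below background, in naive cells, at least 1.58-fold higher, and its difference without replicate 2 was 0.97. All 5 plasma cell markers with a named probe (Sdc1, Xbp1, Jchain, Igha and Ighg1) were called higher in Blimp1-int, of 10 listed. All but Xbp1 were below background in naive cells, entered the test through the plasma cell arrays and could not have been called lower. Of 10 naive follicular markers 4 had a named probe and 3 were tested. H2-Ab1 and Fcer2a were called lower, and the remaining tested marker was not called. Fcer2a has 2 probes, and the mean of them gave -0.99. Ptprc, the gene that encodes B220, lay close to background on all 3 arrays (8.66 and 8.52 in Blimp1-int, 8.71 in naive cells) and was not called. Prdm1 and Irf4 had no named probe and were not analysed here. No tested gene marked T and NK cells or granulocytes: the 7 and 12 probes of those lists lay below background on all 3 arrays. They covered only 5 of 26 and 9 of 20 listed genes. Of the other marker lists, 2 macrophage and dendritic, 1 erythroid or platelet and 2 stromal or endothelial genes were tested, and none was called. Named probes covered 11 of 25, 5 of 21 and 10 of 19 genes of these lists, in that order. Over all 13, 5 and 11 named probes of these lists, most of them below background, mean levels in Blimp1-int lay between 8.37 and 8.48. In naive cells they lay between 8.42 and 8.53, as means on the linear scale taken back to log2. The highest macrophage and dendritic level was 8.76 and 8.99 in Blimp1-int and 9.22 in naive cells. The highest stromal or endothelial level was 8.76 and 8.73 in Blimp1-int and 9.66 in naive cells.

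Of the 2702 tested genes, 157 were called higher in Blimp1-int (5.81%) and 152 lower (5.63%), with a median difference of 0.00 over all genes. Their adjusted p was at most 0.00456. Each array alone passed 2-fold for 133 of the higher and 137 of the lower genes. The typical gap between the Blimp1-int arrays was small: its median over all tested genes was 0.0831, and 95 in 100 genes stayed within 0.279. In 31 of the higher genes the naive level was below background, and in 21 of the lower genes the Blimp1-int level was. For these only a bound is given, written as at least N-fold, from the lowest signal above background or the gene's own value where that is higher. It was under 2-fold for 12 of the 31 and 3 of the 21. The 31 entered the test through the plasma cell arrays and could not have been called lower. Likewise the 21 could not have been called higher. The genes that fell started from brighter levels: they had a median level of 9.40 in Blimp1-int and 11.31 in naive cells, while those that rose had 10.64 in Blimp1-int and 9.16 in naive cells. A call of lower needs a naive level well above the lowest array values, so this contrast follows in part from the call rule. In bulk samples such as these, more cells of a type and more RNA per cell cannot be told apart.

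**Figure D1:**
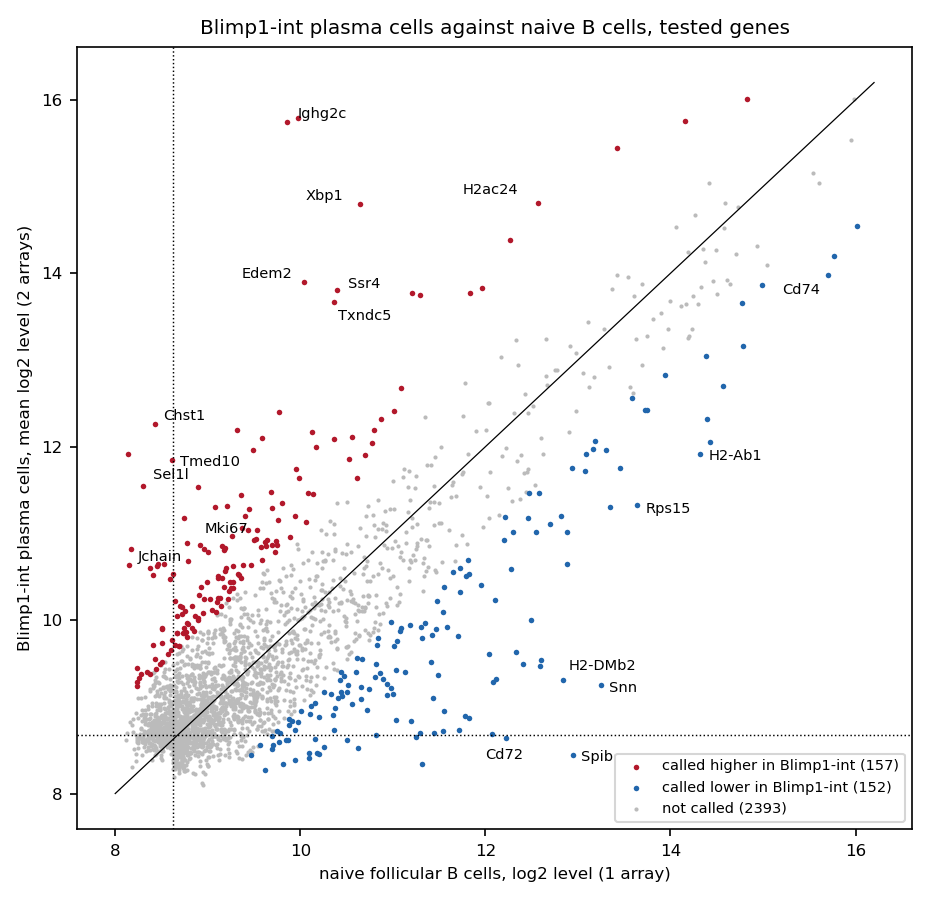
Mean log2 level on the 2 Blimp1-int arrays (vertical axis) against the log2 level on the naive array (horizontal axis) for each of the 2702 tested genes. Red points are the 157 genes called higher in Blimp1-int, blue the 152 called lower and grey the rest; dotted lines mark background (on the vertical axis the mean of both arrays) and the solid line equal levels.

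The antibody genes showed the highest rises. Ighg2c, the constant region of IgG2c, lay at 15.76 and 15.73 in Blimp1-int and 9.85 in naive cells, a difference of 5.89 (SE 0.10, adjusted p = 6.96e-12). Ighg3 lay at 15.87 and 15.71 in Blimp1-int and 9.97 in naive cells, a difference of 5.82. Both probes sat near the top of the scale, which ends at 16.03, and IgG subclasses are similar enough for a probe to bind more than 1 of them. Ighg1 stood at 12.03 and 11.81 in Blimp1-int and at 8.14, below background, in naive cells, at least 9.78-fold higher. Jchain, which joins IgM and IgA into polymers, was at least 4.02-fold higher (10.73 and 10.54 in Blimp1-int, 8.15 in naive cells). Igha, the IgA constant region, was at least 4.06-fold higher (10.41 and 10.88 in Blimp1-int, 8.53 in naive cells). Of 10 tested constant region and J chain genes, 7 were called higher and none lower, with a median difference of 2.07. Among the 7, Ighg1, Jchain and Igha entered the test through the plasma cell arrays and could not have been called lower. The uncalled ones were light chains: Iglc2 differed by 0.41, Iglc3 by -0.34 and Igkc by 0.02, Igkc lying at 16.03 and 15.98 in Blimp1-int and 15.98 in naive cells, at the ceiling of the array. A second Igkc probe differed by 0.92. Ighm, the IgM heavy chain, reached it in Blimp1-int (15.98 and 16.03, against 14.83 in naive cells, a difference of 1.18), and its second probe differed by 2.09. Igkc and Ighm were picked after their values were seen. Under cyclic loess scaling the difference of Ighm was 0.17 and that of Iglc1 1.14 in place of 2.02, while Igkc (-1.04) and Iglc3 (-1.02) were called lower, so that 6 members were higher and 2 lower.

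Variable segments, which encode the antigen binding part of each chain, were measured by probes of their own. They were fitted with all 9332 probes above background, of which 6.29% were called higher and 5.72% lower. For 102 kappa variable probes the median levels were 11.89 and 11.86 in Blimp1-int and 8.94 in naive cells. In naive cells 70 of them were above background, some only just, such as IGKV5-45 at 8.64. Probes that close to background could not have been called lower, and only the brighter ones could have shown a 2-fold fall. Of these 70, 68 were called higher in Blimp1-int and none lower, with a median difference of 2.78. Probes of related segments may bind each other's transcripts, which was not tested, so the 68 are not independent results. The other 32 entered the test through the plasma cell arrays and could not have been called lower, and 12 of them were at least 2-fold higher by their bound. The median level of 94 heavy chain variable probes was 10.30 and 10.02 on the Blimp1-int arrays and 8.38 in naive cells, where 88 of the 94 lay below background. These 88 also entered the test through the plasma cell arrays and could not have been called lower. The heavy chain medians thus rest mostly on probes kept for their plasma cell signal. By their bound, 56 of the 88 were at least 2-fold higher in Blimp1-int. The highest bound, 26.8-fold, was that of IGHV5S17, at 13.68 and 13.06 in Blimp1-int and 8.48, below background, in naive cells. Of the 6 heavy chain probes above background in naive cells 5 were called higher. These 6 lay at 8.72 or less in naive cells. The lowest values of the Blimp1-int arrays were 7.83 and 7.81, so none of the 6 could have been called lower. Of 2 lambda variable probes 1 was called higher. Against Blimp1-hi, in the same fit, 29 heavy and 31 kappa probes were called lower in Blimp1-int and none higher, where 0.943% of all probes were lower and 0.3% higher. Some of these probes entered the test only through the Blimp1-hi array and could not have been called higher in Blimp1-int. IGHV3S3 is such a case, at 8.43 and 8.40 in Blimp1-int, below background, and 9.47 in Blimp1-hi. The 2 T cell receptor probes above background were not called.

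**Figure D2:**
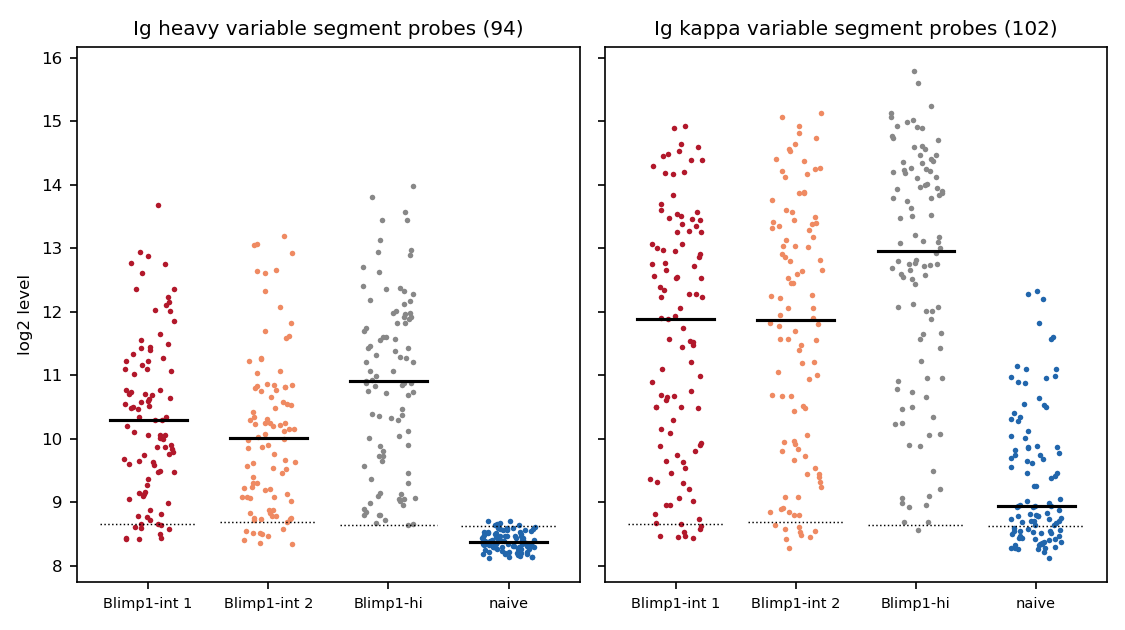
Log2 level of every tested heavy chain (94, left) and kappa (102, right) variable segment probe on each array, with the median as a bar and background as a dotted line. Below background in naive cells were 88 heavy chain and 32 kappa probes, which entered the test through the plasma cell arrays. The heavy chain medians were 10.30 and 10.02 in Blimp1-int, 10.91 in Blimp1-hi and 8.38 in naive cells; the kappa medians were 11.89, 11.86, 12.96 and 8.94 in the same order.

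Some genes of the ER and its stress response also rose. Xbp1, the transcription factor of the secretory program, lay at 14.81 and 14.79 in Blimp1-int and 10.65 in naive cells, a difference of 4.15 (SE 0.10, adjusted p = 8.64e-11), or 17.8-fold. A pair of further transcription factors of the plasma cell list rose: Bhlha15 (Mist1), which shapes secretory cells, by at least 4.56-fold (10.88 and 10.75 in Blimp1-int, 8.17 in naive cells), and Mef2c by 1.17. Ell2, an elongation factor needed for secretory antibody messages (0.43), and Zbtb20 (0.55) were not called, so 3 of 5 tested members rose. Hspa5 (BiP), the chaperone that holds unfolded heavy chains, was at least 4.0-fold higher (10.79 and 10.47 in Blimp1-int, 8.45 in naive cells). Of 6 tested unfolded protein response genes 3 were called higher, namely Xbp1, Hspa5 and Selenok, and the rest were not: Ppp1r15b differed by 0.40, Dnajb9 by -0.18 and Mbtps2 by -0.03. In the folding list 3 of 9 rose. Txndc5, a disulfide isomerase of the ER, stood at 13.43 and 13.92 in Blimp1-int and 10.36 in naive cells (3.31, SE 0.16), and the prolyl isomerase Fkbp2 rose by 1.72.

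Among the degradation genes of the ER, 1 had a rise close to that of Xbp1. Edem2, which trims mannose from misfolded glycoproteins, lay at 13.81 and 13.99 in Blimp1-int and 10.04 in naive cells (3.85, SE 0.11, adjusted p = 3.68e-10). Sel1l, the adaptor of the Hrd1 ubiquitin ligase, rose by 2.63, Selenok by 2.09 and Vcp, the ATPase that pulls substrates out of the membrane, by 1.60 (12.64 and 12.73 in Blimp1-int, 11.09 in naive cells). These were 4 of 10 tested members, with none lower and a list median of 0.51. Derl2, of the channel through which substrates leave the ER, differed by 0.52 and was not called.

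The promoters of Hspa5 and Vcp are shown because they hold sequence elements known from stress response genes: in Hspa5 the ER stress response element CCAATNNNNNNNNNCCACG (in capitals, chr2:34771840-34772139, plus strand) and in Vcp the unfolded protein response element TGACGTGG (in capitals, chr4:43000458-43000757, minus strand). Sequences are RefSeq windows on GRCm38.p6 from 250 bases before to 50 bases after the gene start, 5′ to 3′ along the gene.
Hspa5: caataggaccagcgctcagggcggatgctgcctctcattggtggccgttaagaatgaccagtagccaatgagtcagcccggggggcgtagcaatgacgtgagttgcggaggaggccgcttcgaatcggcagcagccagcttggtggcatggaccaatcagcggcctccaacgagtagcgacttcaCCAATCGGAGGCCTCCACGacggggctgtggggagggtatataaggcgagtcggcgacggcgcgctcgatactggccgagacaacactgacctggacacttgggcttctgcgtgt
Vcp: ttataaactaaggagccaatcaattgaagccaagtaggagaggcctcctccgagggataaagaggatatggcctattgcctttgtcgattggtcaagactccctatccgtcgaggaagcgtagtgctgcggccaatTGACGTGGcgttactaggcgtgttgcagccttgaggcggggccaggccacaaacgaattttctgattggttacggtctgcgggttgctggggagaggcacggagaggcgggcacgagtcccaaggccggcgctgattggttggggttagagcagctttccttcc
The element begins 65 bases before the start in Hspa5 and 114 bases before it in Vcp. Both were picked after the matches were seen. Searched on both strands in 1 window per gene (the first listed), the first element was in 1 of the 128 genes called higher with a promoter in the table (Hspa5) and in 0.13% of all 27025 promoters, and the second in 1 (Vcp) and in 0.607%. Among promoters of tested genes the shares were 0.09% for the first and 0.723% for the second. The shorter GACGTG, which lies within the second element, was in 15 of 128 promoters of genes called higher (11.7%), in 8 of 121 called lower (6.61%) and in 9.94% of those of all 2213 tested genes with a promoter. A match is a description of these windows, not a site shown to be used.

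Entry of chains into the ER and their transport on to the Golgi also had members that rose. Ssr4, a subunit of the translocon-associated complex, lay at 13.93 and 13.68 in Blimp1-int and 10.40 in naive cells, a difference of 3.40 (SE 0.12, adjusted p = 1.53e-09). Of 17 tested translocation and signal peptidase genes 8 were called higher and none lower, and 16 of 17 had a positive difference, with a median of 0.98. They included Sec61g (2.05) and Sec61b (1.31) of the translocon channel, the signal recognition particle receptor Srpr (1.80), Sec63 (1.59) and Tram1 (1.41). With the mean of each gene's probes 6 of the 17 were called, and Sec61b gave 0.97. Of 39 trafficking genes 8 rose and 1 fell, with a median of 0.27: Tmed10, a cargo receptor of COPI vesicles, was at least 9.34-fold higher (12.05 and 11.65 in Blimp1-int, 8.61 in naive cells), Lman1, the mannose-binding cargo receptor, rose by 1.94 and Tmed2 by 1.90. The member that fell was Gga2, a clathrin adaptor of the trans-Golgi network, at 9.41 and 9.58 in Blimp1-int and 12.41 in naive cells (-2.92). Preb, which starts the coating of COPII vesicles, rose by 1.65 and Gorasp2, a Golgi stacking protein, by 1.69. Nucb1, a calcium-binding protein of the Golgi, rose by 2.51 (11.92 and 12.27 in Blimp1-int, 9.59 in naive cells). Chst1, a Golgi sulfotransferase, was at least 12.4-fold higher, with a wide gap between the Blimp1-int arrays (11.87 and 12.65, against 8.43 in naive cells). Tpst1, which sulfates tyrosines in the Golgi, rose by 1.28, and these were 2 of 12 Golgi transferases. Of 10 tested N-glycosylation genes only Gmppa, of GDP-mannose metabolism, was called (1.54), and the mean of its probes gave 0.90.

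**Figure D3:**
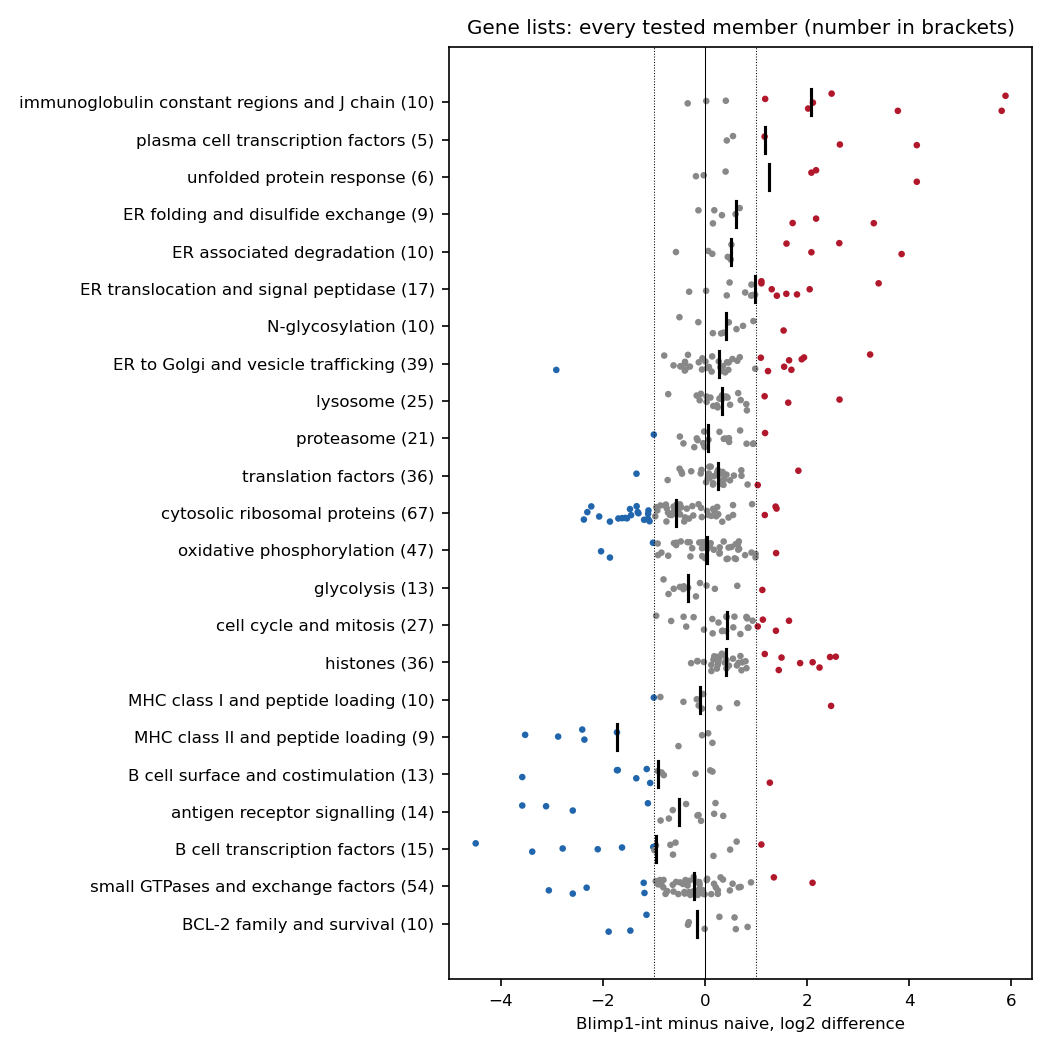
Difference in log2 level, Blimp1-int minus naive, of every tested member of 23 gene lists, with red for genes called higher, blue for genes called lower, grey for the rest and a black bar at the list's median. Dotted lines mark a difference of 1 in each direction.

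Beyond secretion, cathepsin B (Ctsb), a lysosomal protease, rose by 2.64 (12.46 and 12.35 in Blimp1-int, 9.77 in naive cells), and 3 of 25 lysosomal genes rose with none lower; the other 2 were Glb1 (1.63) and Atp6v0a2 (1.17). H2-K1, a heavy chain of MHC class I, rose by 2.47 (12.04 and 11.89 in Blimp1-int, 9.49 in naive cells), whereas the class I list had 1 of 10 higher and 1 lower (the proteasome activator subunit Psme1, -1.0), and B2m differed by 0.63. Psme1 gave -0.66 under quantile scaling without the immunoglobulin probes, which left no class I gene called lower, and -0.93 without replicate 1. H2-K1 has close relatives that its probe may also bind. Tent5c, a poly(A) polymerase that stabilises antibody messages, was at least 7.56-fold higher (11.56 and 11.53 in Blimp1-int, 8.30 in naive cells). Rbm47, an RNA-binding protein, was at least 4.05-fold higher. Mtdh rose by 2.88, Tmem214 by 2.11, Reln by 2.44, Tceal9 by 2.23 and Rhob, a small GTPase, by 2.11. The ferritin subunits went opposite ways: the light chain Ftl1 stood at 13.82 and 13.73 in Blimp1-int and 11.84 in naive cells (1.94), and the heavy chain Fth1 at 9.59 and 9.62 in Blimp1-int and 12.04 in naive cells (-2.43). Both ferritin genes have processed copies, which a probe may not tell apart.

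**Figure D4:**
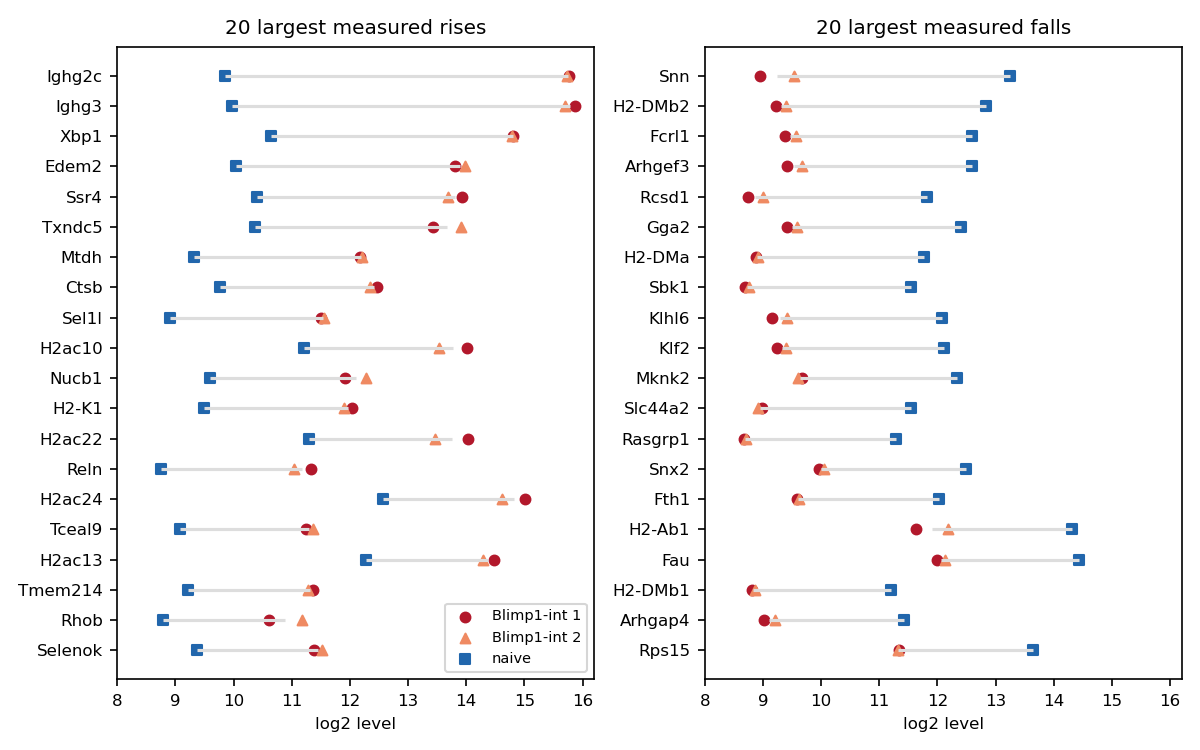
Log2 level on each Blimp1-int array (circle, triangle) and on the naive array (square) for the 20 genes with the largest rises (left) and falls (right) among genes above background on all 3 arrays. The Blimp1-int arrays lie close together for most of these genes; Snn (8.95 and 9.54), Rhob (10.60 and 11.17) and H2ac22 (14.03 and 13.46) have the widest gaps shown.

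Several transcription factors and surface proteins of B cells fell. Spib, an Ets factor of B cell identity, lay at 8.46 and 8.43 in Blimp1-int, below background, and at 12.94 in naive cells, at least 19.2-fold lower (adjusted p = 4.74e-11). Lmo2 lay at 8.72 and 8.65 in Blimp1-int and 12.07 in naive cells, a difference of -3.39, with 1 of the Blimp1-int arrays below background. Klf2, a factor of quiescent circulating lymphocytes, fell by 2.79 (9.24 and 9.40 in Blimp1-int, 12.11 in naive cells). Bcl11a was at least 3.87-fold lower and Id3, an inhibitor of E proteins, at least 2.68-fold lower. In the list of B cell transcription factors 6 of 15 fell and 1 rose, with a median of -0.96. The one that rose was E2f2 (1.10), a factor of the cell cycle, and Nfatc1, at -0.99, was not called. Bach2 lay below background in Blimp1-int (8.44 and 8.46, against 9.41 in naive cells), so that its fall, at least 1.66-fold, has no upper limit here. Without the immunoglobulin probes in the scaling, 5 of the 15 fell.

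The inhibitory receptor Cd72 lay at 8.65 and 8.63 in Blimp1-int, below background, and 12.22 in naive cells, at least 11.7-fold lower. Fcrl1, an Fc receptor homologue of B cells, fell by 3.12 (9.37 and 9.57 in Blimp1-int, 12.59 in naive cells). Cd40, the receptor for T cell help, was at least 2.83-fold lower, and Fcer2a (CD23) at least 1.92-fold lower. Of 13 tested surface genes 6 were called lower and 1 higher, the tetraspanin Cd53 (1.27). One of the 6 was Ifngr2, a chain of the interferon gamma receptor (-1.14). With the mean of each gene's probes 5 were lower, Fcer2a not among them (-0.99). In antigen receptor signalling 4 of 14 fell and none rose, with a median of -0.50: besides Cd72 and Fcrl1 these were Rasgrp1, an activator of Ras (-2.59), and Prkcb (-1.12). Under quantile scaling without the immunoglobulin probes Prkcb gave -0.99, so that 3 of the 14 fell.

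The promoters of Cd72 (chr4:43454577-43454876, minus strand) and Fcrl1 (chr3:87376137-87376436, plus strand) are shown because both genes fell and both windows hold GAGGAAGT, a form of the motif that Ets factors bind. In each it lies on the reverse strand, in capitals.
Cd72: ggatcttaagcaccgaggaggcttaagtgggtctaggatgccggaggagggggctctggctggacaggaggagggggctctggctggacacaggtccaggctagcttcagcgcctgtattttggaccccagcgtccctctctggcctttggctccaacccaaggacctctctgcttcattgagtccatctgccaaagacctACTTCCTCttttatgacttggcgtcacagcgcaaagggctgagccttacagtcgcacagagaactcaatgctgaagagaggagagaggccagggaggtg
Fcrl1: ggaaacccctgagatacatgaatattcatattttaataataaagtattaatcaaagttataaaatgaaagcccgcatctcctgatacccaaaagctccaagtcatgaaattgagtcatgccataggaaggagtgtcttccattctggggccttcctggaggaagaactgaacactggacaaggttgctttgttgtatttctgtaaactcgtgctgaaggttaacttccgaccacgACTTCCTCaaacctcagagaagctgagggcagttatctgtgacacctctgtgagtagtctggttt
It begins 49 bases before the start in Cd72 and 15 bases before it in Fcrl1. The motif, searched on both strands, was in 9 of 121 promoters of genes called lower (7.44%), in 4 of 128 called higher (3.12%), in 3.25% of those of all tested genes and in 3.28% of all 27025 promoters. The others with it among genes called lower included both Bcl2a1 genes described below, nearly identical copies that do not count as independent matches. The Cd72 and Fcrl1 pair was picked after the matches were seen. A match here is likewise not a site shown to be used.

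Of 9 tested genes of antigen presentation on MHC class II, 5 fell. H2-DMb2, a chain of the chaperone that loads peptides, lay at 9.23 and 9.39 in Blimp1-int and 12.84 in naive cells (-3.53, SE 0.11, adjusted p = 5.44e-10). Its partner H2-DMa differed by -2.88 and H2-DMb1 by -2.37 (8.81 and 8.86 in Blimp1-int, 11.20 in naive cells). H2-Ab1, the beta chain of the I-A molecule, stood at 11.64 and 12.19 in Blimp1-int and at 14.32 in naive cells (-2.41, SE 0.17). Cd74, the invariant chain, stood at 13.64 and 14.32 in Blimp1-int and at 15.71 in naive cells (-1.73, SE 0.20). Levels of H2-Ab1 and Cd74 were thus still high in Blimp1-int, and their gaps between the Blimp1-int arrays were among the wider ones. None of the 9 rose, and their median was -1.73; the other 4 were not called, namely the thiol reductase Ifi30 (-0.52) and the regulators Rfx5 (-0.06), Rfxank (0.06) and Rfxap (0.15). Class II genes share a promoter module whose Y box contains GATTGG, and the windows of H2-DMb2 (chr17:34144999-34145298, plus strand) and H2-DMb1 (chr17:34152941-34153240, plus strand) are shown with it in capitals.
H2-DMb2: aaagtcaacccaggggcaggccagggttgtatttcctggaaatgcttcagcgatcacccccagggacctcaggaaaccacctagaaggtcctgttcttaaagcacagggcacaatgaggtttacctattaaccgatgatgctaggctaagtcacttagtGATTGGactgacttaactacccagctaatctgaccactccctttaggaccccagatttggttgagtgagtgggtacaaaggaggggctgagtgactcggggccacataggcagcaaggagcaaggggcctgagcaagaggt
H2-DMb1: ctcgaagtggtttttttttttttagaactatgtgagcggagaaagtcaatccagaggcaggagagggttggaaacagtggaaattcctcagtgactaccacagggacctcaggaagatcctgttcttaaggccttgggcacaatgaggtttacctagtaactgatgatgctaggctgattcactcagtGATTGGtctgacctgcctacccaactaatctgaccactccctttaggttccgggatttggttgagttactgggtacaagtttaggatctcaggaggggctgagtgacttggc
It begins 91 bases before the start in H2-DMb2 and 62 bases before it in H2-DMb1. These letters are common: either strand held them in 16.6% of all promoters and in 21.5% of those of all tested genes. They were in 20 of 121 promoters of genes called lower (16.5%) and in 42 of 128 called higher (32.8%).

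Further large falls belonged to genes of varied roles. Snn (stannin) had the largest fall among genes above background on all 3 arrays, at 8.95 and 9.54 in Blimp1-int and 13.25 in naive cells (-4.0, SE 0.18). Arhgef3, a guanine nucleotide exchange factor, differed by -3.06, Arhgap4 by -2.32, and in the list of small GTPases and their regulators 5 of 54 fell and 2 rose, Rhob and Rgs10 (1.35). One of the 5 was Gimap7, at -1.2 and just short of 2-fold without replicate 1. Rcsd1 (-2.95), Sbk1 (-2.82), Klhl6 (-2.80) the kinase gene Mknk2 (-2.70) and the sorting nexin Snx2 (-2.49) also fell. Cnn3, an actin-binding calponin, was at least 6.24-fold lower. Also below background in Blimp1-int were Rbm38, an RNA-binding protein (at least 3.55-fold lower), the actin-binding Cotl1 (at least 2.99-fold), the exchange factor Plekhg2 (at least 2.89-fold) and Sipa1, which acts on the GTPase Rap (at least 2.79-fold). Slc44a2 differed by -2.60 with its brightest probe and by -1.42 with the mean of its probes.

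The remaining lists had few members past 2-fold. In RNA handling 4 of 53 splicing and RNA-binding genes fell and 1 rose: the Sm ring subunits Snrpf (-2.13) and Snrpg (-1.36), Lsm7 (-1.32) and Rbm38 fell, and Rbm47 rose. With cyclic loess 8 of the 53 fell. Of 23 ribosome biogenesis genes 2 fell, fibrillarin (Fbl, -1.59) and Nhp2 (-1.02), and Nhp2 lost its call under cyclic loess (-0.98). Of 36 translation factors 2 rose and 1 fell: Eif1, which guards start codon choice, rose by 1.83 and the poly(A)-binding Pabpc1 by 1.03, while the elongation factor Eef2 differed by -1.34, or by -0.39 with the mean of its probes. Pabpc1 gave 0.78 under cyclic loess. Among 31 mitochondrial ribosomal proteins 3 rose (Mrpl20 by 1.79, Mrpl51 by 1.26 and Mrps18c by 1.02) and Mrps16 fell by 1.25. Mrps18c gave 0.88 without replicate 1.

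In protein quality control outside the ER, the proteasome subunit Psmd1 rose by 1.18 and the activator Psme1 fell, of 21 proteasome genes. Of 28 cytosolic chaperones, a list that also holds Hspa5, the prefoldin subunit Vbp1 rose by 1.10 and the prefoldin subunit Pfdn5 fell by 1.28. Under quantile scaling without the immunoglobulin probes Pfdn5 gave -0.96. Map1lc3b (LC3B), which coats autophagosomes, rose by 1.28 and was the member called among 13 autophagy genes. None of 30 ubiquitin conjugation genes passed 2-fold, and without the fold threshold 9 were higher and 5 lower by limma's adjusted p.

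In metabolism both called cholesterol synthesis genes of 9 tested rose, Fdps, which makes farnesyl pyrophosphate, by 1.43 and Nsdhl by 1.02, and Nsdhl gave 0.96 without replicate 1. Pgk1 rose by 1.12 and was the member called of 13 glycolysis genes. Got2, the mitochondrial aspartate aminotransferase, rose by 1.27 and was the member called of 12 genes of amino acid synthesis and tRNA charging; under cyclic loess it gave 0.98. Mdh2 was the member called of 8 citric acid cycle genes. Of 15 nucleotide and pentose phosphate genes Impdh2, of guanine nucleotide synthesis, fell by 1.28 and Ak3 rose by 1.2, or 0.55 with the mean of its probes. Of 32 solute carriers Slc39a11, a zinc transporter, rose by 1.43 and Slc11a1 by 1.06, while 2 fell, among them Slc44a2 described above. No member passed 2-fold among 13 genes of fatty acid and phospholipid synthesis or 6 immediate early and stress genes, where limma's adjusted p alone gave 6 higher and 4 lower in the first and 3 higher in the second. Of 10 interferon stimulated genes Igtp rose by 1.12. Of 7 adhesion and migration genes Sdc1 and Rgs10 rose and Klf2 fell, and of 14 antioxidant and iron genes the ferritin pair described above was called.

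Smaller differences, below 2-fold, passed the adjusted p in many more genes: without the fold threshold 27.5% of the 2702 genes were higher and 29.1% lower. Against that background the translocation list had 15 of 17 higher and 1 lower, the ER degradation list 7 of 10 higher and 1 lower, the folding list 6 of 9 and the unfolded protein response list 4 of 6 higher with none lower. The lysosomal list had 14 of 25 higher and 1 lower. Histones had 23 of 36 higher and 1 lower, and cell cycle genes 18 of 27 higher and 4 lower. On the other side, 46 of 67 cytosolic ribosomal protein genes were lower and 8 higher, 11 of 15 B cell transcription factors lower and 3 higher, and 26 of 54 GTPase genes lower and 9 higher. Antigen receptor signalling had 8 of 14 lower and 1 higher. The MHC class II list had 6 of 9 lower and none higher. Oxidative phosphorylation was split, with 19 of 47 higher and 14 lower, and glycolysis had 2 of 13 higher and 7 lower.

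The list of BCL-2 family and survival genes had 10 tested members, of which 3 fell and none rose. Bcl2a1b, an anti-apoptotic member, lay at 9.69 and 9.93 in Blimp1-int and 11.70 in naive cells (-1.89, SE 0.12, adjusted p = 1.34e-07). Bcl2a1d lay at 9.22 and 9.47 in Blimp1-int and 10.81 in naive cells (-1.46), while Bcl2a1a, at 8.73 and 8.79 in Blimp1-int and 8.77 in naive cells, was close to background. The Bcl2a1 copies are nearly identical and their probes may bind each other's transcripts. Map3k14 (NIK), the kinase of the alternative NF-kB pathway, was at least 2.04-fold lower (8.58 and 8.54 in Blimp1-int, 9.70 in naive cells). None of the others passed 2-fold. Among them Bcl2 differed by -0.33 (8.50 and 8.64 in Blimp1-int, below background, 8.90 in naive cells), Bcl2l2 by 0.28, Pim2 by 0.58, Birc2 by 0.60 and Casp8 by -0.32. A second Bcl2 probe differed by 0.15, and the mean of both Bcl2 probes gave -0.09. Mcl1 and Tnfrsf17 had no named probe and were not analysed here.

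Messages for cytosolic ribosomal proteins were lower in Blimp1-int for 20 of 67 tested members and higher for 3, with a median of -0.56. Rps15 lay at 11.34 and 11.33 in Blimp1-int and 13.64 in naive cells (-2.31, SE 0.10), Fau at 11.99 and 12.13 in Blimp1-int and 14.43 in naive cells (-2.38), and Rpl7a differed by -2.23. Rps9 differed by -2.08, Rps16 by -1.86 and Rpl23a by -1.70, and the mean of its probes gave -0.87 for Rps9. Those that rose were Rps27l (1.40), Rpl6 (1.38) and Rps6 (1.17). The size of this fall depended on the scaling: cyclic loess called 42 lower (median -1.24) and quantile scaling without the immunoglobulin probes 12 (median -0.33). Many ribosomal protein genes have processed copies that a probe may not tell apart. Of 47 oxidative phosphorylation genes 3 fell (Uqcrh at -2.04, Atp5l at -1.86 and Cox6b1 at -1.02) and 1 rose (Ndufs4, 1.39). Cox6b1 gave -0.65 with the mean of its probes, -0.71 under quantile scaling without the immunoglobulin probes and -0.99 without replicate 2. Cyclic loess called 6 of the 47 lower and 2 higher, and quantile scaling without the immunoglobulin probes 2 lower and 3 higher. In the fit of all 9332 probes, 5.72% were called lower and 6.29% higher. Of 12 mitochondrial transcript probes in it 5 were called lower and none higher. Their differences ran from -2.09 for ND1 (13.06 and 13.02 in Blimp1-int, 15.13 in naive cells) to 0.48 for ND4L, below background in naive cells. All 3 tested probes for 18S ribosomal RNA were higher in Blimp1-int, by 2.23 to 3.78. The part of the 18S signal in these results was not tested.

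Proliferation genes rose modestly against naive cells and set Blimp1-int apart from Blimp1-hi. Mki67, the proliferation antigen Ki-67, lay at 10.85 and 10.81 in Blimp1-int and 9.19 in naive cells (1.65, SE 0.10). Of 27 tested cell cycle genes 4 rose and none fell, with a median of 0.42: Mki67, the kinetochore subunit Spc24 (1.39), Cdc20, which switches on the anaphase-promoting complex (1.13), and the spindle protein Nusap1 (1.03). Without replicate 1 Nusap1 differed by 0.91, and the mean of its probes gave 0.53 for Cdc20. Of 36 tested histone genes 8 rose and none fell, and 6 of the 8 are H2A genes of the H2ac series; the others were the variant H2az1 (1.45) and H3c10 (1.17). H2ac24 lay at 15.02 and 14.61 in Blimp1-int and 12.57 in naive cells (2.24, SE 0.15, adjusted p = 1.76e-07), and H2ac10 differed by 2.56, H2ac22 by 2.45, H2ac13 by 2.11, H2ac20 by 1.86 and H2ac12 by 1.5. The H2ac genes are nearly identical, so these probes are not independent.

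The difference from Blimp1-hi was tested in the same fit. Of the 2702 genes 11 were called higher in Blimp1-int than in Blimp1-hi (0.407%) and 7 lower (0.259%). Of the 309 genes called against naive cells 11 were among these 18, 77 passed the adjusted p without regard to size, and 232 did not pass it. H2ac24 had 15.02 and 14.61 in Blimp1-int and 12.73 in Blimp1-hi (2.08), H2ac13 14.47 and 14.29 against 12.46 (1.92), and Mki67 10.85 and 10.81 against 9.75 (1.09). In the other direction Igha had 10.41 and 10.88 in Blimp1-int and 12.33 in Blimp1-hi (-1.68, adjusted p = 0.000123). With replicate 1 left out 3 genes were at least 2-fold lower than in Blimp1-hi. Both plasma cell groups are compared with the same naive array, and Blimp1-hi is a single array.

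**Figure D5:**
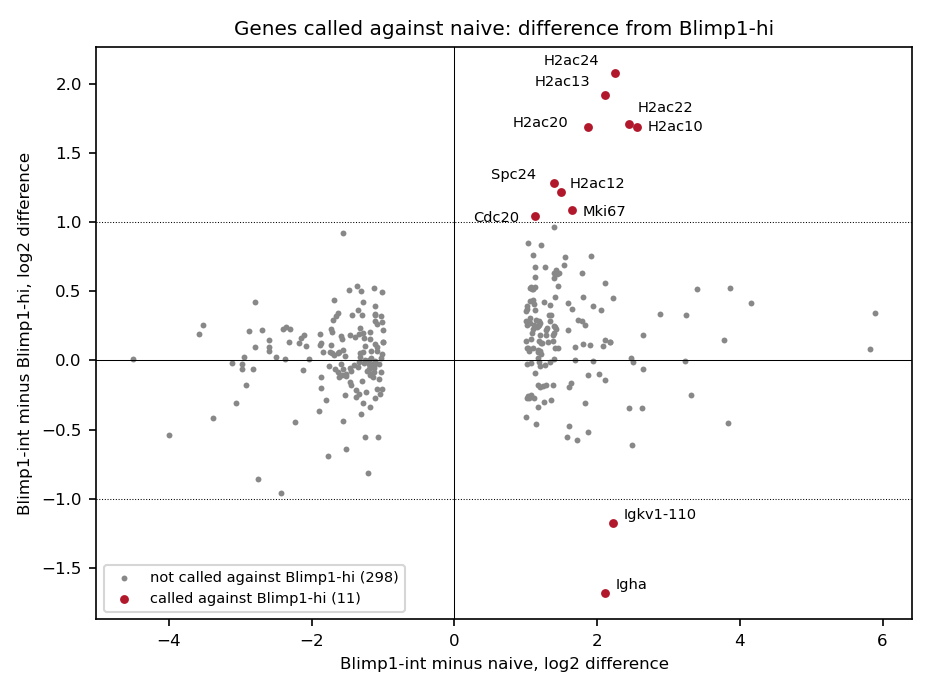
For the 309 genes called against naive cells, the log2 difference Blimp1-int minus Blimp1-hi (vertical axis) against the log2 difference Blimp1-int minus naive (horizontal axis). The 11 genes in red were also called against Blimp1-hi: 6 H2A genes, Mki67, Spc24 and Cdc20 above zero, Igha and a kappa variable segment below; dotted lines mark 2-fold from Blimp1-hi.

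The Blimp1-int arrays themselves agreed closely, with r = 0.985 across all probes, against 0.819 and 0.830 with the naive array (across probes, which are not independent replicates). Among called genes the widest gap was that of Ifi27l2a, an interferon-induced gene, with 12.97 and 11.66 in Blimp1-int and 10.88 in naive cells (1.44, SE 0.35, adjusted p = 0.00456). Without replicate 1 its difference was 0.79. Mdh2, a dehydrogenase of the citric acid cycle, had 10.02 and 9.40 in Blimp1-int and 8.41, below background, in naive cells, at least 2.12-fold higher, and without replicate 1 it fell just short of a difference of 1.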

How the data were processed

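Levels were the authors' deposited log2 values of 4 single-colour Illumina arrays, made with lumi, version not given, per the submitters' processing notes. The sources used here do not state whether the log2 is plain or variance-stabilized, and in the second case folds of dim genes are understated. A second table's 8 value columns match no sample and were not used. Probe identifiers hold zero-padded numbers, which were read as NCBI gene numbers. Of 11897 such probes all but 2065 matched RefSeq genes (GRCm38.p6, names only). Among 5-digit numbers the match was 84.3%, and 50.9% once shifted by 7. A further 9 probes were named by accession and 9 by an immunoglobulin constant region.

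Each gene was represented by its brightest probe above background. A linear model (limma 3.58.1, under R 4.3.3, with eBayes) was fitted to all 4 arrays in 3 groups, with 1 residual degree of freedom, the Blimp1-int pair (prior 10.3 degrees of freedom, prior standard deviation 0.0864), and tested on simulated data. All 309 genes past 2-fold also passed the adjusted p, so the fold threshold sets the calls. The number of arrays limits the precision. The members and the 45 gene lists were chosen with earlier results of these data known. Genes eligible to be named were the BCL-2 family and sort markers, the 20 largest measured differences and the 10 largest bounds per direction, the 8 widest replicate gaps, genes that also passed against Blimp1-hi, and up to 6 called and 2 uncalled members of each list. Most uncalled list members enter only the counts, a few genes are not reported here, and others are named where a short count is spelled out. Alternatives were other scalings, filters, probe choices, call rules and leaving out each Blimp1-int array.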

Additional observations from a re-analysis of the deposited data

Results flagged for a closer look

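Of the 309 genes called against naive cells, 11 also differed between Blimp1-int and Blimp1-hi in the direct test of that difference (limma, Benjamini-Hochberg adjusted). The log2 difference Blimp1-int minus Blimp1-hi was 2.08 for H2ac24, 1.92 for H2ac13, 1.71 for H2ac22, 1.69 for H2ac10, 1.69 for H2ac20 and 1.22 for H2ac12, all histone H2A genes whose probes may share targets. It was 1.28 for Spc24, 1.09 for Mki67 and 1.05 for Cdc20, genes of mitosis and proliferation. It was -1.68 for Igha and -1.18 for a kappa variable segment of the gene table. In each of these 11 the Blimp1-int arrays lay on the same side of the single Blimp1-hi array, and that array has no replicate.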

How the results depend on the processing

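Both counts kept within 1.5 times of 157 higher and 152 lower under 75th percentile scaling (156 and 152), cyclic loess (152 and 199), quantile scaling without the immunoglobulin probes (161 and 119), no filter or a stricter one on dim probes, only genes measured on all 3 arrays (126 and 124), the mean of a gene's probes (145 and 144) and a fit without Blimp1-hi. They moved further with no fold threshold (742 and 785) and over all probes (587 and 534), and the lower count did with limma's treat against 0.5 (240, with 221 higher). Leaving out each Blimp1-int array in turn, counted by fold alone with no test, gave 140 to 172 higher and 149 to 167 lower. Against Blimp1-hi, where this was chosen after seeing the data, it gave 10 to 14 higher and 3 to 9 lower. Of 135 called named genes, 114 kept their call under every alternative that gave them a value, 21 lost it under at least 1, and none reversed. No paired analysis was possible because the naive group has 1 array and the groups share fewer than 2 replicate numbers. Dim genes have bounds only, and the brightest antibody probes lie at the ceiling.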
